A study of Mus musculus with 9 samples.

Results

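The genes described here are 10 imprinted genes that lie outside chromosome 12, *Mest*, *Nnat*, *Peg10*, *Sgce*, *Igf2*, *Peg3*, *Grb10*, *H19*, *Cdkn1c* and *Phlda2*, of 55471 genes in the count table. They were chosen by name with their read counts in all 3 groups of libraries already known, so their levels and fold changes are given as a description without a test. All 10 symbols matched an Ensembl ID of the table. RNA was sequenced from 9 mouse embryoid body (EB) libraries, 3 in each of 3 groups. WT EBs came from the E14 embryonic stem cell line, KO EBs from 1 CRISPR/Cas9 clone of that line with a premature stop in *Tnfaip2*, and KO_PAPC EBs from the same clone grown with palmitic acid (8 µM) and palmitoyl-L-carnitine (8 µM), the fatty acid and the form in which it enters mitochondria. All EBs were taken after 3 days of differentiation, and no WT EBs with the lipids were analysed here. Genotype and clone cannot be told apart, because the KO and the KO_PAPC libraries rest on a single clone.

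An imprinted gene is transcribed mainly from the copy inherited from one parent. Methylation laid down in the sperm or the egg at a control region marks the silent or the active copy, and the zinc finger protein ZFP57 with its corepressor TRIM28 keeps that mark in the early embryo and in embryonic stem cells. Paternally expressed genes include many growth promoters, such as the ligand gene *Igf2*, and maternally expressed genes include growth inhibitors, such as *Grb10* and *Cdkn1c*. Of the 10 genes, 6 are known as paternally expressed (*Mest*, *Nnat*, *Peg10*, *Sgce*, *Igf2*, *Peg3*) and 4 as maternally expressed (*Grb10*, *H19*, *Cdkn1c*, *Phlda2*). The counts sum the reads of both copies, so which copy the RNA came from was not measured.

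Several of them are neighbours. In GRCm38, *Sgce* (chr6:4674350-4747207, minus strand) and *Peg10* (chr6:4747306-4760517, plus strand) start 98 bases apart, head to head. *H19* (chr7:142575529-142578143) and *Igf2* (chr7:142650766-142666816) are separated by 72.6 kb, and *Cdkn1c* (chr7:143458339-143461050) and *Phlda2* (chr7:143501545-143503150) by 40.5 kb, all 4 on the minus strand. *Mest* (chr6:30723547-30748465, plus strand), *Nnat* (chr2:157560078-157562522, plus strand), *Peg3* (chr7:6703892-6730431, minus strand) and *Grb10* (chr11:11930508-12038683, minus strand) lie in domains of their own. Reads that touch the exons of more than 1 gene were not counted, which bears on *Igf2* (64.6% of its exon bases overlap *Igf2os* or *Gm49394*), *Cdkn1c* (30.6%, *Gm44732*), *Mest* (23.1%, *Copg2*) and *H19* (9.15%, including *Mir675*). The reads were not stranded, so an antisense partner such as *Igf2os* could not be separated from *Igf2* by strand.

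RefSeq windows of 300 bases around the transcription start (250 before, 50 after, GRCm38.p6) were at hand for 6 of the 10 genes, with 12 windows in all. None was at hand for *Peg10*, *Sgce*, *H19* and *Cdkn1c*. The windows of *Mest*, *Nnat* and *Grb10* are printed because these 3 genes had 2-fold or larger differences in both directions (KO below WT, KO_PAPC above KO), and the window of *Phlda2* because its level was alike in WT and KO. Sequences run 5′ to 3′ on the strand of the gene, and capitals mark TGCCGC or its reverse complement GCGGCA, the letters that ZFP57 recognises when the CpG within them is methylated.
Mest, chr6:30737800-30738099, plus strand: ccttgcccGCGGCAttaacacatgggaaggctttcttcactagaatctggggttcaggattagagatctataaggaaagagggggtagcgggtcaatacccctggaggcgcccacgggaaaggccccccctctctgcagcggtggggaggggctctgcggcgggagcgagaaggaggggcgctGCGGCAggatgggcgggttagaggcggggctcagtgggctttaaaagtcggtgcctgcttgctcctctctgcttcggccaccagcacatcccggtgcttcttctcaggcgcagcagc
Nnat, chr2:157559828-157560127, plus strand: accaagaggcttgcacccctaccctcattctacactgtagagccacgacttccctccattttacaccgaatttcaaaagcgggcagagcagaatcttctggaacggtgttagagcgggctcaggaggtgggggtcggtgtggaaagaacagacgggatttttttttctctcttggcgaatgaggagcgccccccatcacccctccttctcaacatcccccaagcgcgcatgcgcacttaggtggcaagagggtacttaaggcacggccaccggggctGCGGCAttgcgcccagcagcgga
Grb10, chr11:12037371-12037670, minus strand: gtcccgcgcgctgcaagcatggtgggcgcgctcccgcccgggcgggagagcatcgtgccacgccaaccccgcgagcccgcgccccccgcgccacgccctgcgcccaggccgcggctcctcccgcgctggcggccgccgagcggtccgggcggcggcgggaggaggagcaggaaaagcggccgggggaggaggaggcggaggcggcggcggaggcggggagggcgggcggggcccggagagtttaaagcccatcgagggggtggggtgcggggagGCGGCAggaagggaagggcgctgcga
Phlda2, chr7:143502475-143502774, minus strand: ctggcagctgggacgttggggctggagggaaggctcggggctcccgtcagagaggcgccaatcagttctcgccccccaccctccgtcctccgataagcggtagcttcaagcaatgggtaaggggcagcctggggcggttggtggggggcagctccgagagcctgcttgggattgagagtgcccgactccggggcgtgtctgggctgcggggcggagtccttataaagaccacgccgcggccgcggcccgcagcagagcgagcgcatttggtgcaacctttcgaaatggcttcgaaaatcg

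The letters stood in 5 of the 12 windows and in at least 1 window of 4 of the 6 genes (*Mest*, *Nnat*, *Igf2*, *Grb10*), against 11.6% of all 32851 windows and 13.1% of all 27025 genes. In the other imprinted genes listed further on, 11 of 33 genes held them. These shares are not like for like: the 6 genes had more windows per gene than all genes, and a median GC of 61.7% against 52.7%. *Mest* had 2 matches upstream of the start, 242 and 67 bases before it in the printed window, and the next window of *Mest* overlaps that one almost fully. *Nnat* and *Grb10* had 1 match each within the first transcribed bases. No match stood in the windows of *Peg3* and *Phlda2*. The *Grb10* window was the richest in CpG, with 45 sites and an observed over expected ratio of 0.973, above 92.5% of all windows. The ratio was 0.819 for *Phlda2*, 0.690 for *Nnat*, 0.590 for the printed *Mest* window and 0.464 for *Peg3*, against a median of 0.384 over all windows. A match is a run of letters and not a measured binding site, and methylation was not measured. The windows were taken as promoters and not as control regions.

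Library totals ranged from 27362913 to 28914312 counts. Replicates of a group correlated at Pearson r from 0.992 to 0.995 (log2 CPM, across genes), and the chi-square over its degrees of freedom was 1.22 to 3.45 between replicates, above the sampling noise of a library deposited again. The labels do not say whether replicates were separate cultures, so the p-values given for other genes measure only the spread between these libraries. *Tnfaip2* itself gave 16, 6 and 10 counts in WT, 5, 6 and 8 in KO and 25, 14 and 16 in KO_PAPC, and since a premature stop need not lower a transcript, these counts do not check the genotype. Levels are given as CPM, the count relative to the library size scaled by TMM factors, as mean ± SD over 3 libraries and in the order WT, KO, KO_PAPC where no group is named, and folds as log2 fold changes ± SE from edgeR. The 3 contrasts share libraries (KO in the first and second, WT in the first and last, KO_PAPC in the second and last), so their values are not independent.

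The 10 genes fell into 4 kinds of pattern over the 3 groups. *Mest*, *Nnat* and *Grb10* were lowest in KO and higher again in KO_PAPC. *Peg10*, *Sgce*, *Igf2* and *H19* had their highest mean in KO and their lowest in KO_PAPC. *Cdkn1c* and *Phlda2* were alike in WT and KO and about 2-fold higher in KO_PAPC, while *Peg3* varied by less than 1.5-fold. The first 2 kinds each held both paternally and maternally expressed genes.

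**Figure D1:**
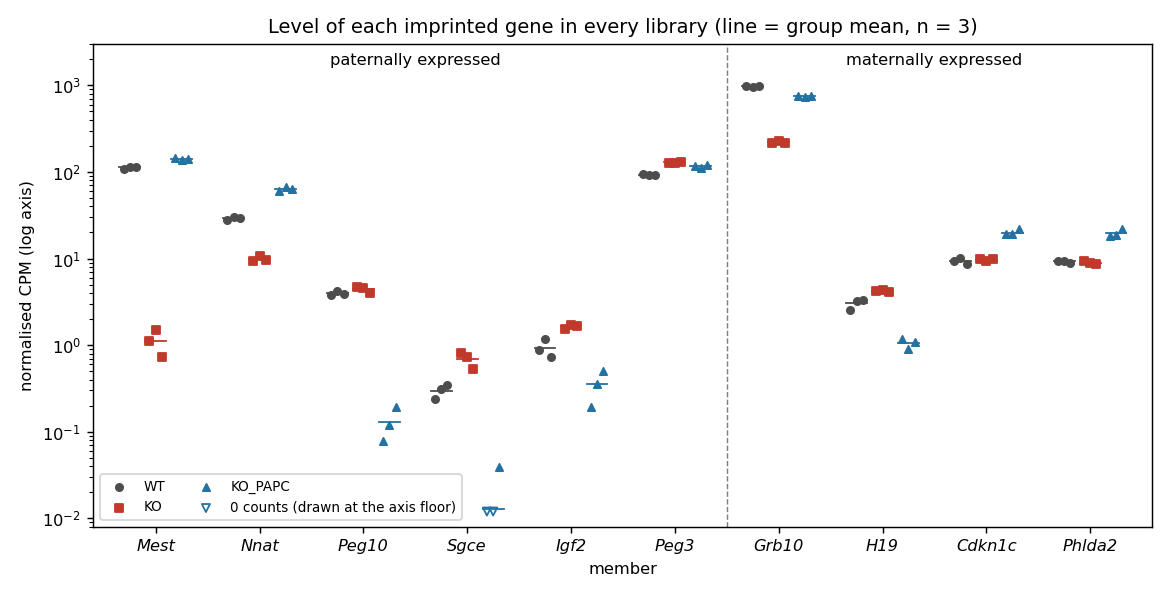
Normalised CPM (log axis) of each imprinted gene in all 9 libraries, by group, with the group mean as a line. *Mest* has means of 113.2, 1.12 and 140.4 CPM, while *Peg10* and *Sgce* lie below 0.2 CPM in every KO_PAPC library, and open triangles mark the 2 libraries with 0 *Sgce* counts.

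*Mest* (mesoderm specific transcript, a hydrolase of the endoplasmic reticulum that promotes growth and fat cell size) showed the widest range of the 10 genes. Its counts were 3235, 3312 and 3323 in the WT libraries, 33, 44 and 22 in KO and 3687, 3474 and 3609 in KO_PAPC. No group overlapped another, and the KO libraries lay far below both others. The means were 113.2 ± 3.29, 1.12 ± 0.39 and 140.4 ± 3.0 CPM. *Mest* thus stood 101-fold below WT in KO (log2 fold change -6.66 ± 0.08), and KO_PAPC stood 125-fold above KO (6.97 ± 0.07), 1.23-fold above WT (0.30 ± 0.03).

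*Nnat* (neuronatin, a small membrane protein of the endoplasmic reticulum in neural and endocrine cells) had 825, 882 and 836 counts in WT, 281, 310 and 291 in KO and 1554, 1715 and 1648 in KO_PAPC. Its 3 groups were separate, with KO lowest and KO_PAPC highest. Its means were 29.2 ± 1.31, 9.93 ± 0.63 and 64.1 ± 3.70 CPM. KO lay 2.94-fold below WT (log2 fold change -1.56 ± 0.06), and KO_PAPC 6.44-fold above KO (2.69 ± 0.06) and 2.19-fold above WT (1.13 ± 0.05).

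*Grb10* (an adaptor that binds the insulin and IGF1 receptors and dampens their signal) had the highest level per kb of exon of the 10 genes in every group. It gave 28913, 27908 and 28476 counts in WT, 6425, 6545 and 6555 in KO and 19440, 18536 and 19503 in KO_PAPC. The groups did not overlap, and KO_PAPC lay between KO and WT. Its levels were 977.8 ± 11.7, 219.8 ± 4.48 and 749.3 ± 14.8 CPM. KO lay 4.46-fold below WT (-2.16 ± 0.02), KO_PAPC 3.40-fold above KO (1.77 ± 0.03) and 1.31-fold below WT (-0.39 ± 0.03).

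*Peg10* (derived from a retrotransposon and needed for the placenta) and *Sgce* (epsilon-sarcoglycan, a membrane glycoprotein) start next to each other, and both had few or no counts in KO_PAPC. *Peg10* had 112, 121 and 112 counts in WT, 140, 134 and 121 in KO and 2, 3 and 5 in KO_PAPC. WT and KO overlapped after scaling, at 3.96 ± 0.21 and 4.45 ± 0.37 CPM (log2 fold change 0.17 ± 0.11), and KO_PAPC stood apart at 0.130 ± 0.060 CPM. With 10 counts in all in KO_PAPC against 395 in KO, *Peg10* was 34.1 times lower (95% exact interval for counting error only, 18.4 to 71.7 times), and 30.3 times lower than in WT (16.3 to 63.8).

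*Sgce* had the lowest level per kb of the 10 genes, with 7, 9 and 10 counts in WT, 24, 21 and 16 in KO and 0, 0 and 1 in KO_PAPC. The KO libraries were above all WT libraries, at 0.687 ± 0.142 against 0.299 ± 0.056 CPM (log2 fold change 1.19 ± 0.32). The single KO_PAPC count against 61 in KO gave a ratio of 52.7 times lower, with an interval from 9.10 to 2114 times. Against WT the ratio was 22.9 times, from 3.76 to 937.2, and *Sgce* did not pass the filter on low counts in that contrast. Per kb of exon, *Sgce* amounted to 0.047 ± 0.008 of *Peg10* in WT and 0.096 ± 0.012 in KO, and these ratios did not overlap. In KO_PAPC the counts were too few for a ratio.

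*Igf2* (insulin-like growth factor 2, a fetal growth ligand) and *H19* (a long non-coding RNA from the same domain, active on the other parental copy) differed in the same direction in each contrast. *Igf2* had 26, 34 and 21 counts in WT, 46, 50 and 50 in KO and 5, 9 and 13 in KO_PAPC. The 3 groups were separate at 0.929 ± 0.228, 1.64 ± 0.09 and 0.352 ± 0.156 CPM. *H19* gave 75, 93 and 96 counts in WT, 125, 126 and 124 in KO and 30, 23 and 28 in KO_PAPC. Its levels of 3.03 ± 0.43, 4.22 ± 0.10 and 1.06 ± 0.13 CPM did not overlap between groups either. KO was 1.76-fold above WT for *Igf2* (0.82 ± 0.20) and 1.39-fold for *H19* (0.48 ± 0.12), and KO_PAPC was 4.63-fold below KO for *Igf2* (-2.21 ± 0.27) and 3.99-fold for *H19* (-1.998 ± 0.16). Against WT, KO_PAPC was 2.63-fold lower for *Igf2* (-1.40 ± 0.32) and 2.87-fold for *H19* (-1.52 ± 0.18). The ratio of *H19* to *Igf2* per kb was 3.08 ± 0.93 in WT, 2.34 ± 0.12 in KO and 3.24 ± 1.92 in KO_PAPC, and the KO_PAPC libraries overlapped both other groups.

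*Cdkn1c* (p57KIP2, an inhibitor of cyclin-dependent kinases) and *Phlda2* (a pleckstrin homology protein that restrains placental growth) had much the same course. *Cdkn1c* had 280, 290 and 250 counts in WT, 290, 273 and 300 in KO and 488, 481 and 557 in KO_PAPC. *Phlda2* had 279, 273 and 259 counts in WT, 279, 259 and 260 in KO and 466, 469 and 561 in KO_PAPC. For both genes the WT and KO libraries overlapped, and all KO_PAPC libraries were higher. *Cdkn1c* stood at 9.40 ± 0.68, 9.71 ± 0.30 and 19.9 ± 1.57 CPM in WT, KO and KO_PAPC, and *Phlda2* at 9.30 ± 0.26, 8.98 ± 0.39 and 19.5 ± 2.06 CPM. KO_PAPC was 2.04-fold above KO for *Cdkn1c* (1.03 ± 0.07) and 2.17-fold for *Phlda2* (1.11 ± 0.07). The per kb ratio of *Cdkn1c* to *Phlda2* was 0.801 ± 0.039 in WT, 0.858 ± 0.049 in KO and 0.810 ± 0.022 in KO_PAPC, and the WT libraries overlapped both other groups.

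*Peg3* (a zinc finger protein with roles in fetal growth and maternal behaviour) varied least among the genes whose groups did not overlap. It gave 2772, 2653 and 2664 counts in WT, 3775, 3718 and 3966 in KO and 3005, 2823 and 3063 in KO_PAPC. At 92.7 ± 0.98, 128.9 ± 2.58 and 115.9 ± 3.97 CPM, KO was highest and WT lowest. The log2 fold changes were 0.47 ± 0.03 for KO versus WT, -0.16 ± 0.03 for KO_PAPC versus KO and 0.31 ± 0.03 for KO_PAPC versus WT.

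**Figure D2:**
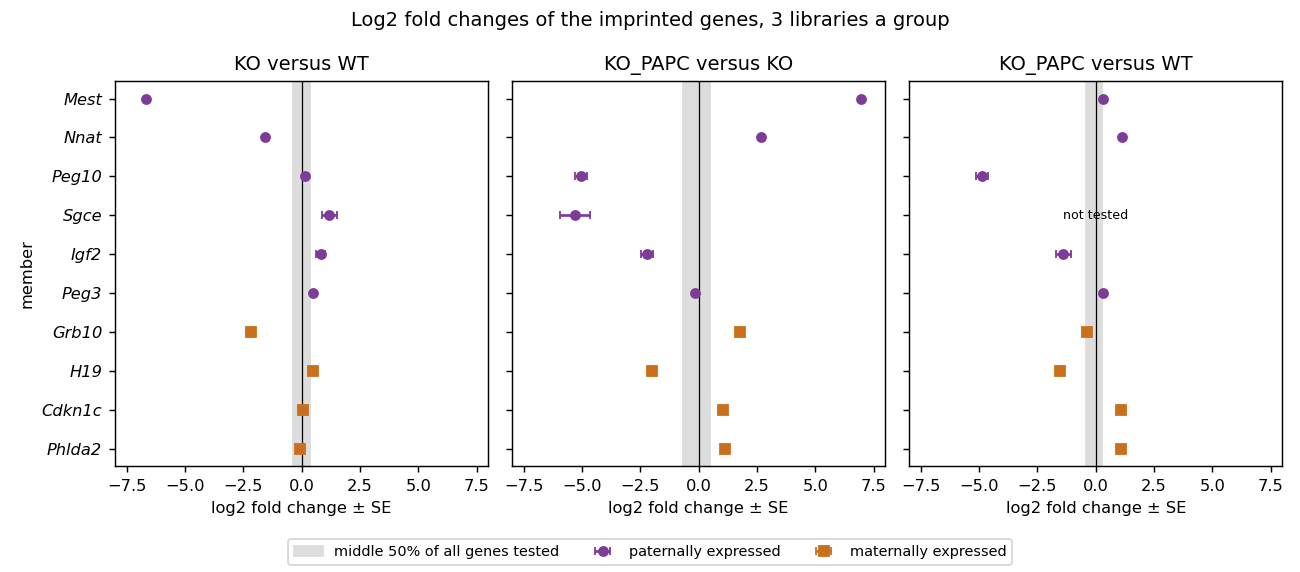
Log2 fold change (points, with SE as bars where wider than the point) of the 10 genes in the 3 contrasts, circles for paternally and squares for maternally expressed genes. The grey band is the middle 50% of all genes tested, from -0.36 to 0.35 for KO versus WT, from -0.65 to 0.47 for KO_PAPC versus KO and from -0.43 to 0.28 for KO_PAPC versus WT. *Mest* lies farthest from the band in the first contrast and *Mest*, *Sgce* and *Peg10* in the second, where the point of *Sgce* is a fitted value that rests on 1 KO_PAPC count.

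Counted over the 10 genes, KO was above WT by 2-fold or more for 1 (*Sgce*) and below it for 3 (*Mest*, *Nnat*, *Grb10*), where 8.86% of all 17355 genes tested were called with such a difference upward and 6.9% downward. The libraries did not overlap for 7 of 10 genes, against 75.3% of all genes. In KO_PAPC against KO, 5 were at least 2-fold higher (3 when scaled by library totals) and 4 lower, beside 9.4% and 18.4% of 17167 genes, and 10 of 10 did not overlap, beside 82.2%. In KO_PAPC against WT, 3 of 9 tested were at least 2-fold higher (*Nnat*, *Cdkn1c*, *Phlda2*, all just under 2-fold with library totals) and 3 lower (*Peg10*, *Igf2*, *H19*), beside 2.25% and 11.4% of 16655 genes, and 10 did not overlap, beside 72.6% of the genes tested. The genes were selected on these values, so nothing is read from the counts.

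Split by parental copy, the medians of the log2 fold changes were 0.32 for the 6 paternally and -0.0035 for the 4 maternally expressed genes in KO versus WT. They were -1.19 (set by *Igf2* and *Peg3*, and so not by the fitted value of *Sgce*) and 1.07 in KO_PAPC versus KO, and 0.30 (5 tested) and 0.33 in KO_PAPC versus WT, where the medians of all genes were -0.01, -0.02 and -0.02. The ranges overlapped in every contrast: in KO_PAPC versus KO they ran from -5.30 (*Sgce*, fitted on 1 count) to 6.97 for the paternally and from -1.998 to 1.77 for the maternally expressed genes. Summed over its members, the paternally expressed set held 240.2 ± 3.67, 146.8 ± 1.83 and 320.9 ± 3.95 CPM. The maternally expressed set held 999.5 ± 10.9, 242.7 ± 4.15 and 789.7 ± 17.2 CPM. Both sums were lowest in KO. The maternal one was nearly all *Grb10*: without it the sums were 21.7 ± 0.88, 22.9 ± 0.42 and 40.5 ± 3.65 CPM. *Mest* and *Peg3* made up most of the paternal sum, which without them was 34.3 ± 1.72, 16.7 ± 0.91 and 64.6 ± 3.81 CPM. Gene by gene, *Peg10*, *Sgce*, *Igf2* and *Peg3*, 4 of the 6, went opposite to this sum, with their highest mean in KO.

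Compared per kb of exon not shared with other genes, *Grb10* was highest in each group, at 107.6 ± 1.30, 24.2 ± 0.49 and 82.4 ± 1.62 CPM per kb. *Sgce* was the lowest in each, at 0.028 ± 0.005, 0.065 ± 0.013 and 0.0012 ± 0.0021. In WT the order between them was *Mest*, *Nnat*, *Phlda2*, *Peg3*, *Cdkn1c*, *H19*, *Peg10* and *Igf2*, and the neighbours *Peg3* and *Cdkn1c*, and *Peg10* and *Igf2*, did not differ beyond their spread. In KO, *Mest* went from rank 2 to rank 9, below *Peg10* (0.667 ± 0.056 CPM per kb), and *Peg3* held rank 2 with 9.68 ± 0.19. KO_PAPC had the WT order at the top (*Grb10*, *Mest*, *Nnat*, *Phlda2*), and *Peg10* held rank 9. No neighbours in the order overlapped in KO or KO_PAPC.

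**Figure D3:**
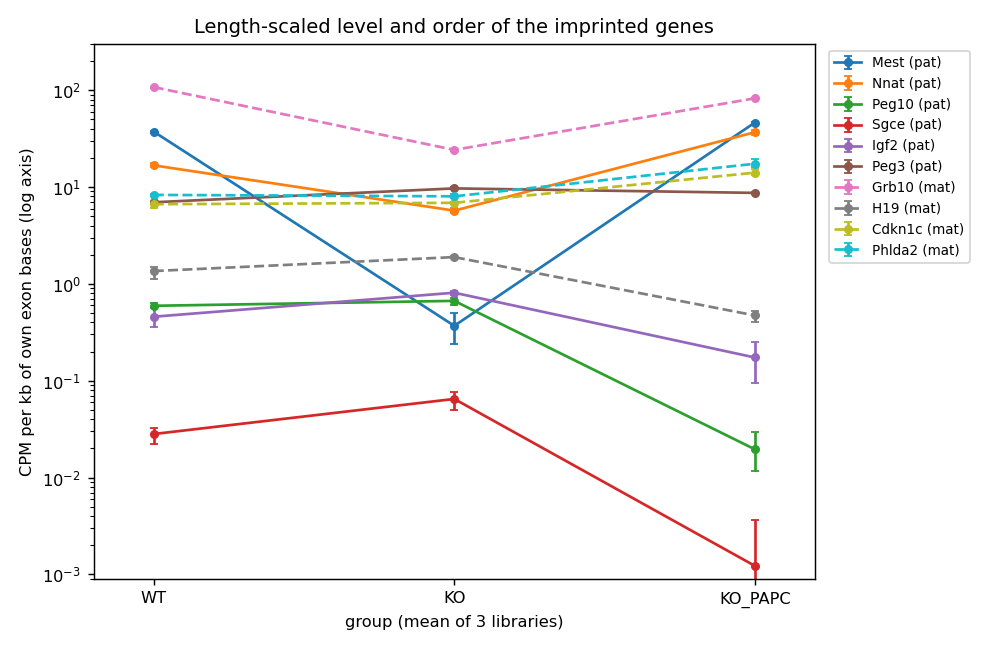
Mean CPM per kb of own exon bases (log axis) in WT, KO and KO_PAPC, solid lines for paternally (pat) and dashed for maternally (mat) expressed genes, with bars from the lowest to the highest library. *Mest* crosses most of the other genes on its way from 37.3 to 0.369 and back to 46.3 CPM per kb, and the lower bar of *Sgce* in KO_PAPC runs off the axis because 2 libraries are at 0.

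Genes within 200 kb of the 10 genes were examined next, to see whether the surroundings differed along with them. Of 60 such genes, 35 could be tested in KO versus WT, of which 18 were higher and 15 lower (edgeR quasi-likelihood test, adjusted p under 0.05), beside 73.8% of all genes called in either direction (36.8% higher, 37.1% lower). In KO_PAPC versus KO, 11 of 36 were higher and 18 lower, beside 81.8% (39.6% and 42.2%), and in KO_PAPC versus WT 11 of 32 were higher and 10 lower, beside 70.6% (34.2% and 36.4%). By at least 2-fold, 6 were higher and 0 lower in the first contrast, 1 and 9 in the second and 1 and 3 in the last. The shares of all genes were 8.86% and 6.9%, 9.4% and 18.4%, and 2.25% and 11.4%. Of these neighbours, *Tnnt3*, *Prr33*, *Tnni2* and *Syt8* were tested only because of their counts in KO. The tested genes that lay nearest to *Mest*, *Nnat*, *Grb10*, *Peg10*, *Sgce*, *Peg3* or *Cdkn1c* included none past 2-fold in any contrast.

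In KO versus WT, where *Mest* itself stood at -6.66, its neighbour *Cep41*, a centrosome gene 29.8 kb away, was at 0.18 ± 0.06, a call that was lost without KO replicate 2 (adjusted p = 0.053) or WT replicate 3 (0.068) in edgeR's quasi-likelihood test. *Copg2*, a coat protein gene whose exons overlap those of *Mest*, averaged 108.0 ± 2.66, 97.5 ± 3.18 and 115.7 ± 1.86 CPM (log2 fold change -0.15 ± 0.03 in KO versus WT). *Blcap*, the host gene in whose intron *Nnat* lies, fell by 0.49 on the log2 scale in KO and did not pass the test in KO_PAPC versus KO (0.03), where *Nnat* stood at 2.69. *Src*, the tyrosine kinase gene 88.2 kb from *Nnat*, was lower in KO (-0.74) and higher in KO_PAPC than in KO (0.96), and the transcript *Gm14286* was lower in KO (-0.71). Beside *Peg10* and *Sgce*, *Casd1* was lower in KO (-0.37) and higher in KO_PAPC than in KO (0.30), and *Ppp1r9a* was lower in KO (-0.15) with no call in KO_PAPC versus KO (0.07). *Col1a2*, a fibrillar collagen gene, was lower in KO (-0.40), a call lost without KO replicate 1 or 3 or WT replicate 1. Around *Grb10*, *Cobl* (-0.32) and *Ikzf1* (-0.82) were lower in KO, and in KO_PAPC versus KO *Cobl* was lower (-0.52) and *Ikzf1* higher (0.40, not called without KO replicate 1). *Usp29*, paternally expressed and starting near *Peg3*, was higher in KO by 0.54, and maternally expressed *Zim1* by 0.59.

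The *H19* side of the *H19* and *Igf2* domain held 5 of the 6 neighbours past 2-fold in KO versus WT. It held 5 of 10 in KO_PAPC versus KO and 0 of 4 in KO_PAPC versus WT. Of these 5, *Tnnt3*, *Prr33*, *Tnni2* and *Syt8* passed the filter on low counts only through KO. Their direction in the first 2 contrasts was thus fixed in advance, and no difference of the region is read from these counts. Of the 8 tested neighbours of *H19*, 7 passed the test with higher levels in KO against WT, as did 36.8% of all genes. Lower levels in KO_PAPC against KO were found for 7, beside 42.2% of all genes. For KO_PAPC against WT only 4 of these neighbours were tested, since *Tnnt3*, *Prr33*, *Tnni2* and *Syt8* did not pass the filter on low counts. Because these genes were kept through KO alone, nothing is read from the 7 of 8 beside the shares of all genes. *Tnnt3*, the fast skeletal troponin T gene 59.5 kb from *H19*, had 8, 10 and 4 counts in WT, 145, 164 and 151 in KO and 0, 2 and 1 in KO_PAPC. Its KO libraries exceeded all 3 WT libraries, by 4.33 ± 0.20 on the log2 scale (edgeR quasi-likelihood test, adjusted p = 2.3e-19). *Prr33*, annotated as a non-coding RNA that overlaps *Tnnt3*, gave 1, 5 and 1 counts in WT, 32, 26 and 37 in KO and 0, 1 and 1 in KO_PAPC. Reads of these 2 genes cannot be fully assigned, since they overlap and strand was not used. The next genes, named after their values were seen, had the same order of groups: *Tnni2* with 0, 2 and 2 counts in WT, 17, 21 and 19 in KO and 0, 1 and 0 in KO_PAPC, and *Syt8* with 1, 1 and 0, then 18, 31 and 23, then 1, 0 and 0. *Lsp1* averaged 1.09 ± 0.15, 3.46 ± 0.39 and 1.52 ± 0.16 CPM and rose in KO against WT. *Igf2os*, antisense to *Igf2*, went the other way in the first contrast (-0.50) and was lower in KO_PAPC than in KO (-1.40).

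In the domain of *Cdkn1c* and *Phlda2*, maternally expressed genes of 1 cluster differed in direction. *Slc22a18*, a transporter gene 2.21 kb from *Phlda2*, had 102, 104 and 107 counts in WT, 96, 115 and 104 in KO and 36, 29 and 42 in KO_PAPC. Its KO_PAPC libraries were below all KO libraries (log2 fold change -1.35 ± 0.16, edgeR adjusted p = 1.4e-09), where those of *Phlda2* and *Cdkn1c* were above. *Cars*, cysteinyl-tRNA synthetase, was lower in KO (-0.51) and lower again in KO_PAPC (-1.19 against KO). *Kcnq1ot1*, the paternally expressed long non-coding RNA known to silence the cluster in cis, averaged 9.64 ± 0.13, 5.39 ± 0.80 and 10.5 ± 1.23 CPM and is named after its values were seen. Its reads cannot be told by strand from those of *Kcnq1*, to which it is antisense. *Kcnq1* itself averaged 0.138, 0.170 and 0.065 CPM. It fell by 0.84 ± 0.09 on the log2 scale in KO (edgeR adjusted p = 3.2e-10), where *Cdkn1c* and *Phlda2* differed by 0.05 ± 0.07 and -0.05 ± 0.07. In KO_PAPC it was 0.96 ± 0.10 above KO, and *Cdkn1c* and *Phlda2* were also higher. Whether these levels are linked was not tested, and the counts do not tell the parental copies apart.

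**Figure D4:**
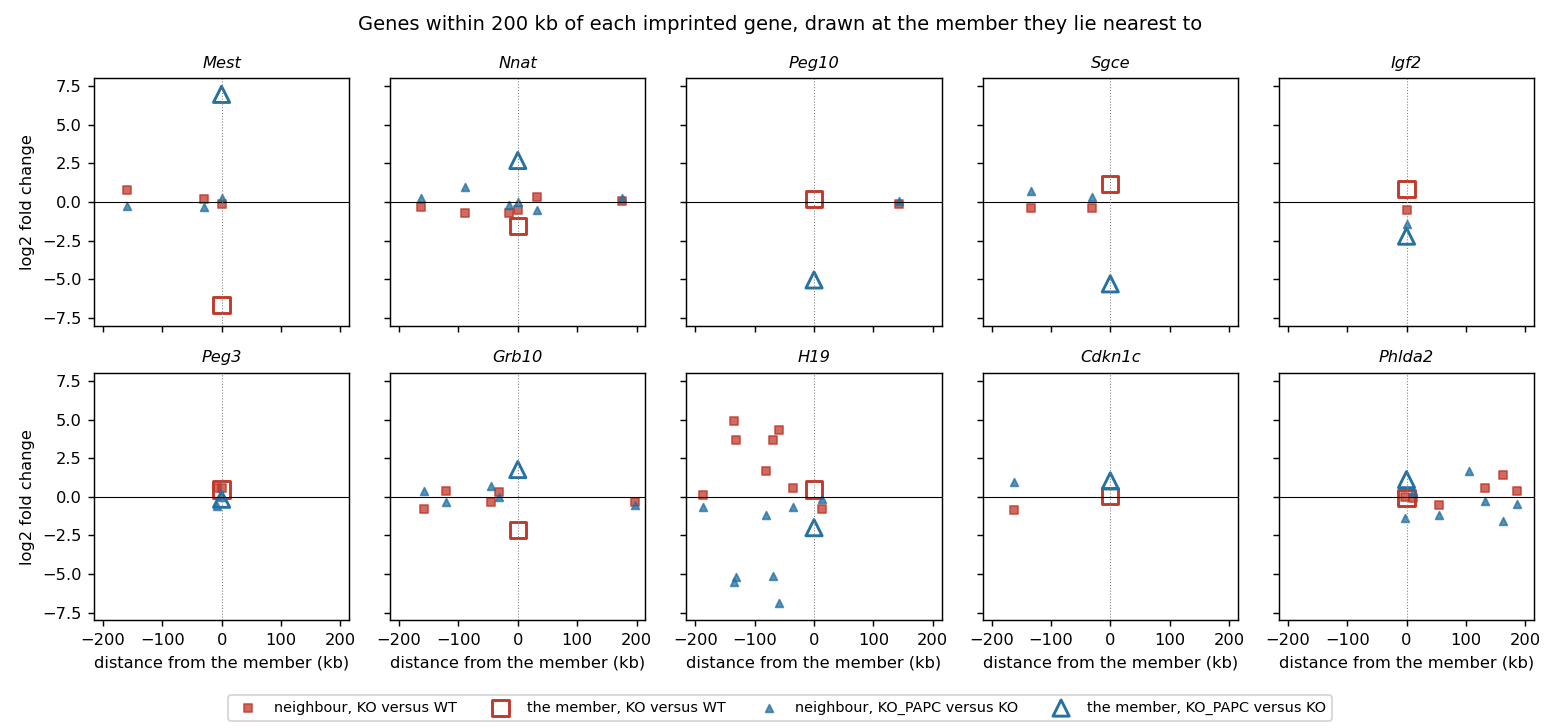
Log2 fold changes of tested genes within 200 kb of each imprinted gene, plotted against the distance in kb along the chromosome (0 for overlapping genes), squares for KO versus WT and triangles for KO_PAPC versus KO. Large open symbols are the imprinted gene itself. In the *Mest* panel no neighbour lies past 2-fold. In the *H19* panel 5 genes to the left lie above 1 in KO versus WT and below -1 in KO_PAPC versus KO. Of these, 4 are fitted on 3 or fewer counts in all KO_PAPC libraries and passed the filter only through KO.

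A further 40 imprinted genes outside chromosome 12, 20 of each parental kind, were counted in the same fits, 9 of them also among the neighbours. KO versus WT gave 17 higher and 11 lower of 34 tested. For KO_PAPC the numbers were 12 and 15 of 32 against KO, then 12 and 9 of 32 against WT. The shares called, 82.4%, 84.4% and 65.6%, lay near the 73.8%, 81.8% and 70.6% of all genes. The medians were 0.16 for the paternally and 0.10 for the maternally expressed genes in the first contrast, then -0.25 and 0.08 in the second. Both alleles held genes that rose and fell: 10 paternally expressed genes were higher and 5 lower in KO, against 7 and 6 of the maternally expressed.

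Some of these genes had the course of *Mest*, *Nnat* and *Grb10*. *Calcr*, the calcitonin receptor gene on the same chromosome as *Peg10*, had 140, 129 and 124 counts in WT, 29, 20 and 30 in KO and 310, 314 and 328 in KO_PAPC. It fell by 2.34 ± 0.16 on the log2 scale in KO and was 3.79 ± 0.13 above KO in KO_PAPC (edgeR quasi-likelihood test, adjusted p = 2.6e-15 and 1.9e-25), with no overlap between groups. *Asb4*, an ankyrin repeat gene of the same chromosome, was lower in KO (-0.50, a call lost with DESeq2) and higher in KO_PAPC against KO (1.59). *Magel2*, of the Prader-Willi domain, averaged 10.1 ± 0.30, 10.3 ± 0.34 and 27.6 ± 1.40 CPM, the same order of groups as *Cdkn1c* and *Phlda2*. The course of *Peg10*, *Igf2* and *H19* was seen in *Zfp264*, annotated as a transcribed pseudogene, at 8.30 ± 0.27, 21.7 ± 1.73 and 1.59 ± 0.42 CPM, and in *Sfmbt2*, a Polycomb gene, at 5.36 ± 0.26, 12.8 ± 0.50 and 1.68 ± 0.38 CPM. *Tnfrsf23* was higher in KO (1.42) and lower in KO_PAPC than in KO (-1.54). *Plagl1*, a transcription factor gene named after its values were seen, had 25, 27 and 32 counts in WT, 15, 5 and 9 in KO and 0, 1 and 0 in KO_PAPC.

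**Figure D5:**
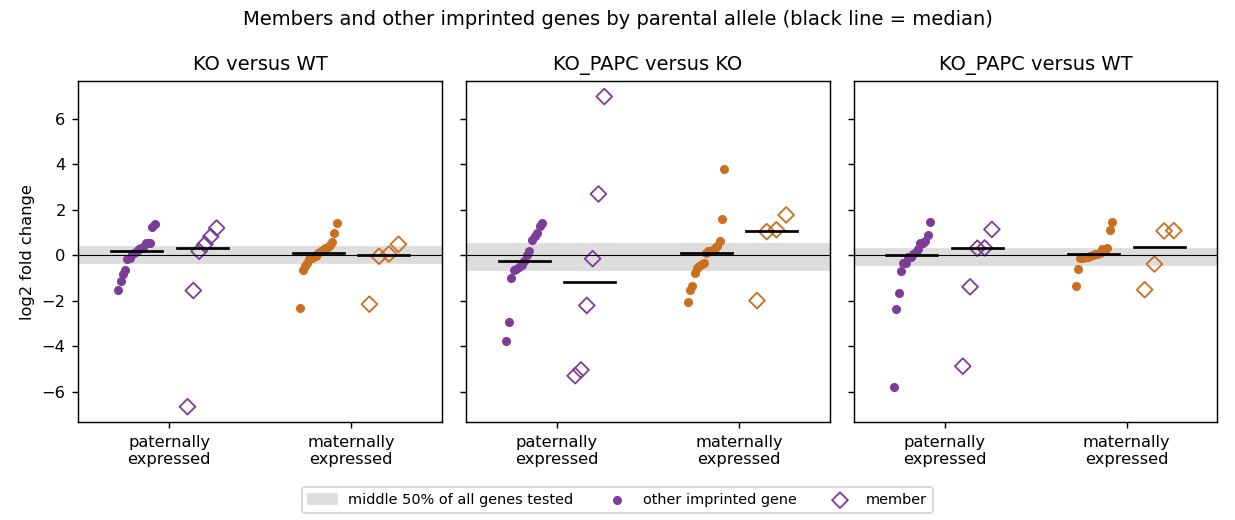
Log2 fold changes of the 10 genes (open diamonds) and of the other imprinted genes (filled circles) by parental copy in the 3 contrasts, with medians as black lines and the middle 50% of all genes as a grey band. In KO_PAPC versus KO the medians of the 10 genes are -1.19 for paternally and 1.07 for maternally expressed genes, and those of the other imprinted genes are -0.25 and 0.08.

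All 20 genes on a list of factors that set, keep or remove imprints were expressed enough to be tested. KO against WT gave 10 higher and 8 lower, KO_PAPC against KO 10 and 9, and KO_PAPC against WT 13 and 6, or 90%, 95% and 95% called beside 73.8%, 81.8% and 70.6% of all genes. Of the de novo methyltransferases, *Dnmt3b* averaged 209.6 ± 3.35, 144.3 ± 1.23 and 670.2 ± 9.63 CPM and *Dnmt3a* 321.1 ± 3.63, 201.6 ± 2.39 and 627.3 ± 7.80 CPM. Both fell in KO and rose in KO_PAPC against KO, by 2.21 ± 0.03 and 1.63 ± 0.03 on the log2 scale. *Uhrf1*, the partner of the maintenance enzyme, and *Ehmt2*, a histone H3 lysine 9 methyltransferase, had the same directions, with -0.34 and -0.76 in KO and 1.003 and 1.04 in KO_PAPC against KO. *Dppa3*, which protects imprints in the zygote, went the opposite way (1.65, then -3.17), as did *Ctcfl*, a germline relative of the insulator protein CTCF (1.36, then -3.96). *Zfp57* was lower in KO (-0.13) and again in KO_PAPC against KO (-0.44), and *Dnmt1* did not pass the test in KO_PAPC versus KO (-0.01). *Trim28* went the other way from *Zfp57*, higher in KO (0.093) and in KO_PAPC against KO (0.296). *Dnmt3l*, listed with *Dnmt3a* and *Dnmt3b* under de novo methylation, was lower in KO (-0.088) but, unlike them, also lower in KO_PAPC against KO (-0.335).

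In the insulin and IGF pathway, on which *Igf2* and *Grb10* act, 27 of 31 genes were tested, with 11 higher and 11 lower for KO against WT, 14 and 12 for KO_PAPC against KO and 13 and 9 for KO_PAPC against WT (81.5%, 96.3% and 81.5% called, beside 73.8%, 81.8% and 70.6% of all genes). Of the ligands, *Igf1* did not pass the test in KO (-0.17 ± 0.18) and was lower in KO_PAPC than in KO (-1.94 ± 0.26), and *Ins1* was at 0 counts in all libraries. The receptors *Igf1r* and *Insr* were lower in KO (-0.56 and -0.18) and higher in KO_PAPC than in KO (1.06 and 0.73). The other receptor listed, *Insrr*, went the opposite way (0.82, then -0.87). It averaged only 0.308, 0.550 and 0.300 CPM, and its libraries overlapped in both contrasts. Among the binding proteins, which hold IGFs in the extracellular space, *Igfbp2* averaged 993.5 ± 50.8, 441.0 ± 5.93 and 1607 ± 55.7 CPM. *Igfbp4* and *Igfbp5* also fell in KO (-1.10 and -1.10) and rose in KO_PAPC against KO (0.85 and 0.67). *Igfbp3* went the opposite way in both (0.26, then -0.17), and *Igfbp6* was lower in KO_PAPC than in KO (-2.79). In KO_PAPC *Igfbp6* had only 4, 4 and 3 counts and *Igf1* 10, 11 and 8, which limits the precision of their folds. *Irs1*, a receptor substrate, fell by 1.35 in KO (19, 15 and 13 counts there) and was 1.73 higher in KO_PAPC than in KO. *Grb14* and *Grb7*, the relatives of *Grb10*, were higher in KO (0.94 and 0.46) and lower in KO_PAPC than in KO (-0.88 and -0.66), opposite to *Grb10*.

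The genes whose course over the 9 libraries was closest to each of the 10, by root mean square (RMS) difference in centred log2 CPM among 14193 genes, included 1 pair within the set. *Cdkn1c* and *Phlda2* were each other's nearest gene, with an RMS of 0.069. For *Nnat* it was *Efnb2* (0.076, with means of 92.7, 32.4 and 205.1 CPM), then *Grrp1* (0.076). *Ccnd2* (0.074) and *Cpe* (0.097) lay closest to *Grb10*, and *Usp15* (0.024) and *Tpp2* (0.028) to *Peg3*. No gene followed *Mest* closely: the nearest, *Stc1* (11.2, 0.439 and 25.6 CPM) and *Sp8* (12.2, 0.663 and 18.3 CPM), were at 0.937 and 1.18. *Tuba3b* (0.255) and *Tex13b* (0.265) were nearest to *Peg10*, *Mgll* (0.265) and *Krt23* (0.291) to *Sgce*, *Slc13a4* (0.192) and *6430548M08Rik* (0.242) to *Igf2*, and *Esam* (0.109) and *Hspb1* (0.124) to *H19*. *Zfp988* (0.081) came next to *Cdkn1c* and *Camkv* (0.072) to *Phlda2*. The 9 points are 3 groups of 3 libraries, so likeness here mostly means alike group means.

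Marker genes of the cell types that EBs can hold moved with the groups. The summed level of 7 pluripotency genes ranged from 2192 to 2217 CPM over the WT libraries, from 3389 to 3406 over KO and from 2156 to 2190 over KO_PAPC, with 6 of 7 genes higher in KO, beside 36.8% of all genes, and 6 of 7 lower in KO_PAPC against KO, beside 42.2%. In KO_PAPC against WT, 5 of the 7 were lower (from -0.22 for *Klf4* to -1.43 for *Tfcp2l1*), beside 36.4%. Higher were 2 (*Pou5f1* 0.47, *Sox2* 0.07), beside 34.2%, so the similar sums of WT and KO_PAPC do not mean similar levels gene by gene. Extraembryonic endoderm genes, a lineage that also surrounds EBs, summed to 470.0 to 484.9, 259.4 to 266.7 and 38.6 to 39.4 CPM. In KO 8 of these 11 were lower, *Cubn* and *Dab2* making up most of the sum, and 3 higher (*Ttr* 0.50, *Afp* 1.21, *Apoa1* 0.33). In KO_PAPC 11 of 11 were lower than in KO. Beside these and the following counts, 36.8% of all genes were higher and 37.1% lower in KO. For KO_PAPC against KO the shares were 39.6% and 42.2%. The 9 trophoblast genes summed to 96.5 to 97.5, 318.4 to 325.1 and 67.0 to 72.3 CPM, of which *Tfap2c* alone made up 51.8, 283.0 and 29.7, with 3 genes higher and 2 lower in KO and 2 higher and 5 lower in KO_PAPC against KO. Neuroectoderm genes summed to 194.4 to 202.2, 124.0 to 130.7 and 319.3 to 323.4 CPM, with 4 of 8 lower in KO (*Sox1*, *Pax6*, *Nes*, *Pax3*), 2 higher (*Tubb3* 0.24, *Map2* 0.20) and 6 higher and 0 lower in KO_PAPC against KO. Mesoderm genes summed to 40.5 to 42.7, 22.2 to 23.6 and 25.7 to 28.4 CPM and went both ways. Of the 8, 2 were higher and 3 lower in KO, and 3 higher and 3 lower in KO_PAPC against KO, near the shares of all genes. *Pdgfra* made up most of the WT sum (34.0, 12.8 and 2.53 CPM), *T*, the primitive streak factor, averaged 1.83, 0.281 and 16.7 CPM, and *Kdr* 1.86, 6.18 and 0.562 CPM. The 8 fibroblast genes summed to 15.2 to 15.6, 21.1 to 23.3 and 17.9 to 20.9 CPM, with 4 of them below 1 CPM in every group and *Lum* under 0.1 CPM throughout. The part of these lineages in the levels of the imprinted genes was not tested, and in bulk RNA fewer cells of a type and less RNA per cell cannot be told apart.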

How the data were processed

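RNA of 9 EB libraries was read as 51-cycle single-end reads of unstranded libraries. The authors deposited whole-number read counts per Ensembl gene, not normalised. Per the labels, reads were converted with bcl2fastq 2.20.0.422, mapped with STAR 2.7.2b to GRCm38 and counted with featureCounts 1.6.5 for all libraries, while the study's methods describe an earlier pipeline for KO versus WT. Reads in several places or several genes were not counted, which lowers overlapping genes. Groups and replicate numbers were taken from the sample titles. The number of unused columns of per-sample values was 0.

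Positions came from GENCODE M21 (241 of 55471 IDs unmatched), and promoter windows from RefSeq (GRCm38.p6). Each contrast was fitted on its own 6 libraries with edgeR 4.0.16 in R 4.3.3 (quasi-likelihood, TMM, filterByExpr, Benjamini-Hochberg over all genes tested, called at an adjusted p under 0.05), without covariates. SEs were derived from the F statistic. CPM used TMM factors over all 9 libraries. Exact intervals of count ratios cover counting error only. The scripts were tested on simulated data. Alternatives were DESeq2 1.42.0, RLE factors, library totals, other filters, a joint fit, a replicate block, each library left out and neighbours within 500 kb.

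The members and lists were chosen with earlier results of these data known. Named genes were the 10 members, at most 6 called genes per list and 2 neighbours per member by the largest absolute log2 fold change in any contrast (at least 1 CPM in a group), the 2 genes most alike to each member, and cell type markers. Other neighbours, regulators and pathway genes were named for position or role after their values were seen. An item that the rule names is not reported here. Same-numbered libraries did not deviate together (correlations from -0.036 to 0.034), so the numbers were not taken as pairs.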

Additional observations from a re-analysis of the deposited data

How the results depend on the processing

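Under the alternatives run, 365 values of the 10 genes moved by less than their spread and 12 by more, and the only one to change sign was *Cdkn1c* in KO versus WT (-0.01 without WT replicate 3, from 0.05). With library totals in place of TMM the median of all genes shifted from -0.02 to -0.18 in KO_PAPC versus KO and in KO_PAPC versus WT, and the share of called genes that were higher went from 48.4% to 38% and from 48.4% to 30.2%. The same scaling left 3 of the 10 genes at least 2-fold higher in KO_PAPC versus KO (*Cdkn1c* at 0.86 and *Phlda2* at 0.95 were no longer counted) and 0 in KO_PAPC versus WT (*Nnat* 0.96, *Cdkn1c* 0.91, *Phlda2* 0.90), so their folds are to be read relative to that shift. It also turned the Ppp1r9a log2 fold change, KO_PAPC versus KO, from 0.07 to -0.091 (edgeR adjusted p = 0.030). Leaving out 1 library gave 1 to 2 genes at least 2-fold higher in KO versus WT, and without WT replicate 2 *Igf2* was counted as well. The ranges were 4 to 5 in KO_PAPC versus KO and 2 to 3 in KO_PAPC versus WT. Without KO_PAPC replicate 3, the only one with an *Sgce* count, the fitted value of *Sgce* in KO_PAPC versus KO went to -7.27. Neighbours within 500 kb gave 58, 60 and 44 called genes in the 3 contrasts, where 73.8%, 81.8% and 70.6% of all genes were called. The wider window holds more genes, so these counts are not comparable with those within 200 kb. With the replicate number as a replicate block, 12587, 13822 and 12223 genes were called, against 12813, 14047 and 11760 without it, and no named gene apart from *Ppp1r9a* in KO_PAPC versus WT changed its call. DESeq2 called 11456, 13556 and 10481. *Asb4*, *Cep41* and *Col1a2* in KO versus WT, *Ikzf1* in both contrasts of KO_PAPC, and *Cep41* and *Col1a2* in KO_PAPC versus WT lost their call with DESeq2. Counts near 0, as for *Sgce*, *Peg10* and *Tnnt3* in KO_PAPC, limit the precision of a fold. *Ppp1r9a* passed the test in KO_PAPC versus KO without KO_PAPC replicate 1 (0.09) or 3 (0.11). The cause of these differences was not tested.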
